A study of Homo sapiens with 8 samples.

Results

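A set of 52 genes that encode kinetochore, mitotic checkpoint, chromosomal passenger and spindle pole proteins was followed between P-bodies and cytosol in 2 human acute myeloid leukaemia cell lines. The genes were chosen by name, from textbook membership of these structures, but with earlier results of these data known. All 52 symbols stood in the count tables of both lines, among 60196 symbols that each named 1 row. Total RNA had been sequenced from 8 libraries in 4 groups of 2: P-body RNA and cytosolic RNA of HEL, which comes from an erythroleukaemia, and P-body RNA and cytosolic RNA of MOLM-13, which has monocytic features. No treatment, transgene or edited allele is named for any group, and "cyto", as the titles have it, is taken here to mean the cytosolic fraction. All cells grew in RPMI medium with serum, L-glutamine, beta-mercaptoethanol and antibiotics. The labels do not describe how P-bodies were purified, nor whether separate cultures stand behind the 2 libraries of a group. Each p-value therefore reflects the spread between 2 libraries that may be technical copies.

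Kinetochores are protein assemblies built on centromeric chromatin that hold each chromosome to spindle microtubules. The inner kinetochore, with the histone variant CENP-A and the constitutive centromere-associated network (CCAN), binds the centromere. The outer kinetochore, with KNL1 and the MIS12 and NDC80 complexes, binds microtubules, and the corona, the RZZ complex and the checkpoint kinases report unattached chromosomes and delay anaphase. P-bodies are cytoplasmic granules without a membrane that hold translationally repressed mRNAs together with decapping and repressor proteins. Many of the mRNAs described here are made in late S phase and G2 and are translated as cells approach division.

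Library totals ran from 13153551 to 18071473 counts in HEL and from 5897625 to 11000536 in MOLM-13. Levels are given as CPM, counts brought to a common library size by edgeR's TMM factors within each line, so a level in HEL and a level in MOLM-13 were scaled separately. Replicates were less alike in HEL than in MOLM-13: the chi-square per degree of freedom between the libraries of a group was 6.15 and 4.55 in HEL P-bodies and cytosol, and 1.88 and 1.87 in MOLM-13. Of 12 erythroid and megakaryocytic markers, 11 were higher in every HEL library than in any MOLM-13 library, and of 13 monocytic and myeloid markers 10 were higher in every MOLM-13 library. HOXA10 was higher in every HEL library, MEIS1 overlapped, and CD68 was at 0 in HEL and at most 0.531 CPM in MOLM-13. In HEL, GATA1 ranged from 209 to 350 CPM and ITGA2B from 443 to 1220, while the myeloid gene MPO was at 0. In MOLM-13, MPO ranged from 562 to 995 CPM and MNDA from 109 to 297, while GATA1 stayed at or below 0.119; GP1BB was at 0 in both lines. Libraries hold RNA of many cells, so a difference in the share of dividing cells and a difference in RNA per cell cannot be told apart. Whether reads were counted by strand is not stated in any source here, and other genes' exons on the opposite strand cover 45.4% of the bases of the NUMA1 transcript, 44.8% of CENPP, 39.4% of CENPO, 38.9% of BORA and 21.1% of SGO1. The read-through gene BUB1B-PAK6 covers 10.7% of BUB1B on its own strand, so counts of these genes are less certain than those of the others.

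Sequences of the 3′ untranslated region (3′ UTR) were searched for the Pumilio motif TGTANATA on the transcript strand, because Pumilio proteins bind this element and repress translation of the mRNAs that carry it. Sequences come from GRCh38 with GENCODE release 29 and are written 5′ to 3′ on the transcript strand with the 8 motif bases in capitals. The sites below are those of mRNAs that the results turn on: TTK, CENPC, CENPF and BORA, which were high in P-bodies of both lines, BUB1, whose direction differed between lines, and INCENP, which was low in MOLM-13 P-bodies although it carries the same element. For TTK, CENPC and INCENP 1 of 2 matches is shown. CDCA8 and NUMA1, called lower in P-bodies of both lines, also hold a match, which is not shown. In the order printed, the motif bases lie at chr6:80042380-80042387 (plus strand), chr4:67472413-67472420 (minus), chr1:214664016-214664023, chr1:214664035-214664042 and chr1:214664365-214664372 (plus), chr13:72755793-72755800 (plus), chr2:110637923-110637930 (minus) and chr11:62152233-62152240 (plus), all in 3′ UTR exons.
TTK: ttatggcacTGTATATAttgtagact
CENPC: ttcagtgacTGTACATAatagcttgt
CENPF, site 1: ctactgcaaTGTAAATAgtataaagc
CENPF, site 2: ataaagctaTGTATATAaagcttttt
CENPF, site 3: tatgaaaccTGTACATAtgtgtgtgt
BORA: ttttaagtaTGTAAATActagaaagg
BUB1: aaatcacacTGTAAATAtgaatctgc
INCENP: acagtgctcTGTAAATAgttgtttta

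Of 51 members with an annotated 3′ UTR that were tested in MOLM-13, 19 held at least 1 match (37.3%), against 25.8% of all tested coding genes. Matches per kilobase of 3′ UTR were 0.426 in members and 0.239 in all tested coding genes. In MOLM-13 the median log2 change in P-bodies was 0.99 for members with a match and 0.45 for those without, and in all coding genes it was 0.44 with and -0.07 without. In HEL the corresponding medians were 0.46 and 0.07 for members and 0.29 and -0.15 for all coding genes. A long 3′ UTR is more likely to hold a match, and the median 3′ UTR of all coding genes tested in MOLM-13 was 2391 bases with a match and 677 without. Short 3′ UTRs with a match include those of BUB1 (130 bases), where 3.66% of coding genes of like 3′ UTR length held one, and TTK (325 bases, 2 matches), where 9% did. The other TTK match overlaps an AATAAA polyadenylation signal, as do matches in CENPK, NSL1 and NUMA1. CENPE, CENPQ and SGO1 held no match. The motif is mostly A and T, and P-body levels also followed GC content. In MOLM-13 the Pearson correlation of GC content with the log2 change was -0.81 across members and -0.7 across all coding genes. The part of GC content and 3′ UTR length in the medians with and without a match was not tested. A match describes letters in a sequence and does not show that a protein was bound.

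Members were more often high than low in P-bodies of both lines, though in HEL this turned round with library totals or with the GC and length trend removed. In HEL, 27 of 51 tested members were higher in P-bodies than in cytosol and 10 were lower at an edgeR adjusted p below 0.05, where 27.5% of all tested genes were higher and 27.1% lower. MAD1L1, at 4 to 10 counts a library in HEL, did not pass the filter there. In MOLM-13, 33 of 52 were higher and 9 lower, where 32.4% of all tested genes were higher and 28.5% lower. The median log2 change of members was 0.24 in HEL (all tested genes -0.06) and 0.65 in MOLM-13 (all -0.04). Higher by at least 2-fold were 7 members in HEL, against 12.6% of all genes, and 18 in MOLM-13, against 15.3%. Summed over members, levels were 9725 and 9465 CPM in the HEL P-body libraries and 7694 and 7738 in cytosol, and 8427 and 8167 CPM in the MOLM-13 P-body libraries against 3841 and 3830 in cytosol.

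Members that rose in 1 line mostly rose in the other, to about the extent seen in all genes. Of 51 members tested in both lines, 25 were higher in P-bodies of both, where 24.5% of all genes tested in both lines were. These were 92.6% of the 27 members higher in HEL and 75.8% of the 33 higher in MOLM-13, and over all genes the shares were 84.1% and 68.3%. CDCA8, PLK1 and NUMA1 were lower in both (14.9% of all genes), and CENPE, BUB1 and ASPM were lower in HEL P-bodies and higher in MOLM-13 P-bodies (2.42%). No member was higher in HEL and lower in MOLM-13, as were 0.876% of all genes. Without the test, both P-body libraries lay above both cytosolic libraries for 29 members in HEL (35.3% of all tested genes) and 34 in MOLM-13 (39.2%), and below them for 13 members in HEL (41.1%) and 11 in MOLM-13 (40.6%).

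These counts depended on the treatment of base composition and on scaling. With the trend of the log2 change on GC content and transcript length over all genes removed, 11 members were higher and 15 lower in HEL (23.1% and 21.7% of all genes), with a median of -0.01, and 23 were higher and 8 lower in MOLM-13 (29.3% and 19%), with a median of 0.19. With library totals in place of TMM the median of all genes moved to -0.39 in HEL and -0.47 in MOLM-13, and members stood at 15 higher and 22 lower (18.7% and 45.8% of all genes) and at 24 higher and 17 lower (20.6% and 50.8%).

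**Figure D1:**
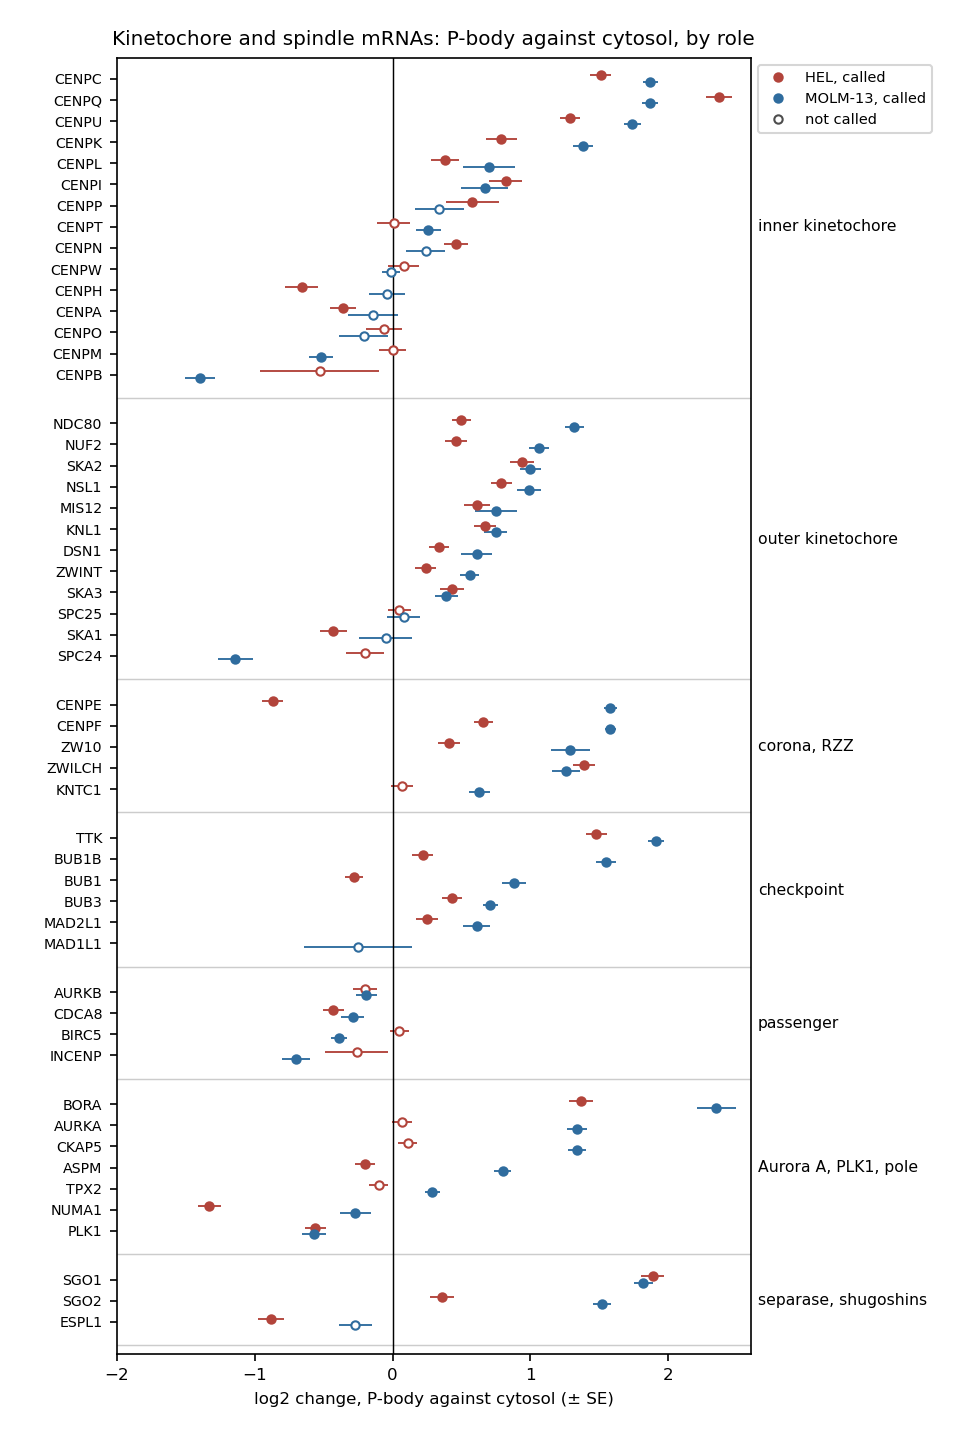
Log2 change between P-bodies and cytosol (x axis, with standard error) of every member, grouped by role, in HEL (red) and MOLM-13 (blue); filled points passed an edgeR adjusted p of 0.05 and open points did not. CENPE stands at -0.87 in HEL and 1.58 in MOLM-13, all corona and RZZ mRNAs lie above 0 in MOLM-13 (KNTC1 turned to -0.08 with the GC and length trend removed), and no passenger complex mRNA was called higher in either line; with the GC and length trend removed, AURKB was called higher in MOLM-13 (0.25) and BIRC5 in HEL (0.35).

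Inner kinetochore mRNAs ranged from far higher in P-bodies, as CENPQ in both lines, to lower, as CENPB in MOLM-13. Of 15 genes, 8 rose and 2 fell in HEL (median log2 change 0.38), and 7 rose and 2 fell in MOLM-13 (median 0.26, which turned to -0.18 with library totals). CENPQ, a CCAN subunit of the CENP-O/P/Q/U group, measured 242 and 255 CPM in HEL P-bodies and 52 and 44.2 in cytosol, a 5.18-fold rise (log2 change 2.37 ± 0.092, SE, n = 2 libraries a group; edgeR adjusted p = 4.17e-11). In MOLM-13 it measured 367 and 371 CPM in P-bodies and 96.6 and 105 in cytosol (3.65-fold, log2 1.87 ± 0.057, edgeR adjusted p = 2.81e-19). P-body and cytosolic libraries were far apart in both lines. CENPC, which links CENP-A nucleosomes to the outer kinetochore, rose as well: 238 and 250 CPM against 88.1 and 83.8 in HEL (2.84-fold, log2 1.51 ± 0.078, edgeR adjusted p = 5.12e-10) and 535 and 493 against 145 and 137 in MOLM-13 (3.65-fold, log2 1.87 ± 0.055, edgeR adjusted p = 1.65e-19). CENPU rose 2.44-fold in HEL and 3.33-fold in MOLM-13, while CENPO and CENPP of the same group showed log2 changes of -0.06 and 0.58 in HEL and -0.21 and 0.34 in MOLM-13, of which only that of CENPP in HEL was called. Also called higher in HEL and MOLM-13 were CENPK (1.72- and 2.6-fold), CENPI (1.77- and 1.59-fold) and CENPL (1.3- and 1.63-fold). With the GC and length trend removed, of these only CENPK in MOLM-13 was still called (log2 0.82).

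The mRNA of the centromeric histone itself, CENPA, fell in HEL P-bodies (46.8 and 46.3 CPM against 62.7 and 56.8, log2 change -0.36). Its log2 change in MOLM-13 was -0.14 and was not called. CENPH, a CCAN subunit, measured 22.4 and 27.9 CPM in HEL P-bodies and 40.5 and 39.1 in cytosol (log2 -0.66 ± 0.12, edgeR adjusted p = 0.000324), and in MOLM-13 22.6 and 21.1 against 21.5 and 23.2, where the libraries overlapped. CENPB, which binds a sequence box in centromeric repeats, had the lowest value of all members in MOLM-13, with 21.7 and 23 CPM in P-bodies and 65.8 and 52.5 in cytosol (2.64-fold lower, log2 -1.40 ± 0.11, edgeR adjusted p = 6.78e-11). In HEL it was near the limit of detection, at 10 to 28 counts a library, and its log2 change of -0.53 ± 0.43 was not called. CENPM was also lower in MOLM-13 P-bodies, at 49.9 and 59.8 CPM against 79.4 and 77.9 (log2 -0.52 ± 0.086, edgeR adjusted p = 9.91e-06; 0.18 and not called with the GC and length trend removed), and in HEL it measured 35.4 and 36 against 36.4 and 34.9. Some calls of this role rested on 1 library: CENPA in HEL was not called without P-body replicate 2 (log2 -0.26, edgeR adjusted p = 0.0927), CENPP in HEL not without cytosol replicate 1 (0.42, edgeR adjusted p = 0.126), and CENPT, at 0.26 in MOLM-13, not without cytosol replicate 2 (0.24, edgeR adjusted p = 0.0945).

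Of 12 outer kinetochore mRNAs 9 rose and 1 fell in each line (medians 0.44 in HEL and 0.68 in MOLM-13). With the GC and length trend removed none rose and 3 fell in HEL (median -0.03), and 4 rose and 3 fell in MOLM-13 (median 0.16). The 3 member subunits of the MIS12 complex, the bridge between inner and outer kinetochore, were higher in both lines. With that trend removed only DSN1 in MOLM-13 was called (0.29) and NSL1 in HEL stood at -0.01. PMF1, a subunit of that complex counted below among the other genes, was not higher. Its log2 change was -0.27 in HEL, not called, and -0.6 in MOLM-13, called lower. Log2 changes in HEL and MOLM-13 were 0.34 and 0.61 for DSN1, 0.61 and 0.75 for MIS12, and 0.79 and 0.99 for NSL1. KNL1, the scaffold for checkpoint proteins, rose by 0.67 and 0.75, and stood at -0.16 and -0.04 with the trend removed. The 4 subunits of the NDC80 complex, the main microtubule coupler, did not follow each other. NDC80 measured 284 and 265 CPM in HEL P-bodies against 193 and 196 in cytosol (log2 0.50 ± 0.072, edgeR adjusted p = 3.23e-05), and 150 and 153 in MOLM-13 P-bodies against 57.4 and 63.3 (2.50-fold, log2 1.32 ± 0.070, edgeR adjusted p = 1.58e-14). Its dimer partner NUF2 rose in both lines, with log2 changes of 0.46 in HEL and 1.06 in MOLM-13.

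The other dimer of that complex, SPC24 with SPC25, had lower values. SPC24 measured 24 and 29.3 CPM in HEL P-bodies and 27.1 and 33.9 in cytosol, where the libraries overlapped, and 12.7 and 13.2 in MOLM-13 P-bodies against 29.4 and 27.7 in cytosol (2.20-fold lower, log2 -1.14 ± 0.13, edgeR adjusted p = 5.82e-08), but with the trend removed the MOLM-13 value was -0.20 and was not called (edgeR adjusted p = 0.231). SPC25 overlapped between fractions in both lines, with log2 changes of 0.05 and 0.08. Of the SKA complex, which tracks microtubule ends, SKA2 rose in both lines (0.94 and 1.00) and SKA3 too (0.43 and 0.39), SKA1 fell in HEL (-0.43) and was not called in MOLM-13 (-0.05). ZWINT, a partner of KNL1, rose by 0.24 in HEL, a call lost without either cytosolic library (0.23 in each case, edgeR adjusted p = 0.0648 and 0.0728), and by 0.56 in MOLM-13. SPC24 became a call in HEL without cytosol replicate 1 (-0.35, edgeR adjusted p = 0.0412).

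The corona and RZZ mRNAs had the highest median of the roles with at least 4 members in MOLM-13, where all 5 rose in P-bodies (median log2 change 1.29; 4 of 5 with the GC and length trend removed). In HEL 3 rose and 1 fell (median 0.41; 1 rose and 2 fell with the trend removed). CENPE, a kinesin motor that carries chromosomes to the spindle equator, was named when the list was proposed for its difference between lines, so its values are a description. Its gene lies at chr4:103105806-103198409 on the minus strand. In HEL CENPE measured 100 and 104 CPM in P-bodies and 190 and 184 in cytosol, 1.83-fold lower in P-bodies (log2 -0.87 ± 0.077). In MOLM-13 it measured 914 and 862 CPM in P-bodies and 303 and 292 in cytosol, 2.99-fold higher (log2 1.58 ± 0.047). Both P-body libraries lay below both cytosolic libraries in HEL and above them in MOLM-13. With the GC and length trend removed the values were -1.80 and 0.83, so the opposite signs stayed.

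CENPF, a large coiled-coil protein of the corona, rose in both lines. It measured 880 and 874 CPM in HEL P-bodies against 543 and 570 in cytosol (1.58-fold, log2 0.66 ± 0.068, edgeR adjusted p = 9.33e-07), and 2460 and 2340 in MOLM-13 P-bodies against 796 and 806 (3-fold, log2 1.58 ± 0.041, edgeR adjusted p = 2.02e-20). Per kilobase of transcript its level in MOLM-13 P-bodies was 233 CPM, close to the 213 of CENPQ and the 199 of CENPW, and CENPE stood at 103. Of the RZZ complex, which recruits dynein and the MAD1-MAD2 checkpoint proteins, ZWILCH measured 252 and 234 CPM against 97.7 and 87.8 in HEL (2.62-fold, log2 1.39 ± 0.083, edgeR adjusted p = 2.27e-09) and rose 2.39-fold in MOLM-13. ZW10 rose by 0.41 in HEL and 1.29 in MOLM-13, and KNTC1, which encodes the Rod subunit, was not called in HEL (0.07) and rose by 0.63 in MOLM-13. With the GC and length trend removed, CENPF (0.06) and ZW10 (0.10) were no longer called in HEL, and KNTC1 was lower there (-0.58).

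Spindle assembly checkpoint mRNAs were mostly higher in P-bodies: 4 of 5 tested in HEL, where 1 was lower, and 5 of 6 in MOLM-13; in HEL the median of 0.25 turned to -0.07 with library totals. With the GC and length trend removed 1 rose and 2 fell in HEL (median -0.13), and 3 rose in MOLM-13, where the median went from 0.80 to 0.34. TTK, the kinase MPS1 that starts checkpoint signalling, measured 586 and 540 CPM in HEL P-bodies and 206 and 197 in cytosol (2.79-fold, log2 1.48 ± 0.073, edgeR adjusted p = 3.17e-10). In MOLM-13 TTK measured 322 and 326 CPM against 85.7 and 86.2 (3.77-fold, log2 1.91 ± 0.057, edgeR adjusted p = 1.82e-19). The kinase BUB1 went in opposite directions. BUB1 measured 594 and 559 CPM in HEL P-bodies and 691 and 710 in cytosol (1.22-fold lower, log2 -0.28 ± 0.068, edgeR adjusted p = 0.0028), and 81.9 and 75.4 in MOLM-13 P-bodies against 45.9 and 39.9 (1.84-fold higher, log2 0.88 ± 0.088, edgeR adjusted p = 3.3e-09). The fall in HEL was not called without P-body replicate 2 (-0.15, edgeR adjusted p = 0.0737).

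BUB1B encodes BubR1, a part of the complex that inhibits the anaphase-promoting complex. It measured 291 and 255 CPM in HEL P-bodies against 234 and 235 in cytosol (log2 0.22 ± 0.077, edgeR adjusted p = 0.0282), and 149 and 143 in MOLM-13 P-bodies against 49.7 and 50.1 (2.93-fold, log2 1.55 ± 0.071, edgeR adjusted p = 8.86e-16). The HEL call of BUB1B was lost without P-body replicate 1 (0.12) and without cytosol replicate 1 (0.21) or 2 (0.22), and the value rose to 0.39 without P-body replicate 2. BUB3 and MAD2L1, which act in the same inhibitor, rose by 0.43 and 0.25 in HEL and by 0.71 and 0.61 in MOLM-13; MAD2L1 was not called in HEL without cytosol replicate 2 (0.18, edgeR adjusted p = 0.158). MAD1L1 had 13 to 18 counts a library in MOLM-13, too few for a call (-0.25 ± 0.39).

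Chromosomal passenger mRNAs, which encode the Aurora B kinase complex that corrects faulty attachments, lay mostly on the cytosolic side. None of the 4 was higher in either line, 1 fell in HEL and all 4 fell in MOLM-13 (medians -0.23 and -0.34), though with the GC and length trend removed the HEL median was 0.24 with BIRC5 called higher, and AURKB was called higher in MOLM-13. INCENP, the scaffold of the complex, measured 29.2 and 28.1 CPM in MOLM-13 P-bodies and 46.5 and 46.7 in cytosol (1.63-fold lower, log2 -0.70 ± 0.099, edgeR adjusted p = 1.14e-06), and in HEL 3.82 and 4.49 CPM against 5.36 and 4.61, at 61 to 80 counts a library. BIRC5, which encodes survivin, measured 268 and 279 CPM in HEL P-bodies and 259 and 271 in cytosol, where the libraries overlapped. In MOLM-13 it measured 148 and 148 CPM against 199 and 191 (1.31-fold lower, log2 -0.39 ± 0.056, edgeR adjusted p = 1.32e-06). CDCA8, which encodes borealin, was lower in both lines (-0.43 and -0.29), and AURKB, the kinase, was lower in MOLM-13 (-0.19) and not called in HEL (-0.20). The MOLM-13 call of AURKB was lost without P-body replicate 1 (-0.13) or 2 (-0.20) or cytosol replicate 1 (-0.07), and that of CDCA8 without cytosol replicate 2 (-0.23).

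In the Aurora A, PLK1 and spindle pole group more members rose in MOLM-13 than in HEL. Of 7 genes, 1 rose and 3 fell in HEL (median -0.10), while 5 rose and 2 fell in MOLM-13 (median 0.80). With the GC and length trend removed 1 rose and 4 fell in HEL, and 3 rose and none fell in MOLM-13 (median 0.18). BORA, a cofactor through which Aurora A activates PLK1, measured 204 and 180 CPM in HEL P-bodies and 73.9 and 74.6 in cytosol (2.58-fold, log2 1.37 ± 0.086, edgeR adjusted p = 3.81e-09). In MOLM-13 BORA measured 40 and 40.3 CPM against 8.12 and 7.63 (5.11-fold, log2 2.35 ± 0.14, edgeR adjusted p = 1.13e-13), the highest log2 change of any member there. AURKA, the kinase itself, measured 169 and 168 CPM in HEL P-bodies against 162 and 159 (log2 0.07 ± 0.073, not called), and 156 and 147 in MOLM-13 P-bodies against 62.7 and 57.1 (2.54-fold, log2 1.34 ± 0.071, edgeR adjusted p = 1.82e-14). PLK1 fell in both lines: 139 and 141 CPM against 196 and 216 in HEL (log2 -0.56 ± 0.078, edgeR adjusted p = 2.35e-05) and 45.4 and 43.2 against 66.3 and 65.4 in MOLM-13 (log2 -0.57 ± 0.084, edgeR adjusted p = 2.2e-06). Without the GC and length trend, PLK1 was called in neither line (-0.08 and -0.18).

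Among spindle pole and microtubule factors, CKAP5, a microtubule polymerase, measured 643 and 595 CPM in HEL P-bodies and 558 and 591 in cytosol (log2 0.11 ± 0.071, not called), but 212 and 198 against 81.2 and 80.6 in MOLM-13 (2.54-fold, log2 1.34 ± 0.063, edgeR adjusted p = 1.47e-15). CKAP5 was called higher in HEL without P-body replicate 2 (0.25, edgeR adjusted p = 0.00185). ASPM, which focuses spindle poles, fell by 0.20 on the log2 scale in HEL and rose by 0.80 in MOLM-13, where it stood at 0.03 and was not called with the trend removed (edgeR adjusted p = 0.736). The HEL call was lost without P-body replicate 2 (-0.09), cytosol replicate 1 (-0.17) or cytosol replicate 2 (-0.24). NUMA1, which tethers dynein at the poles, had the lowest HEL value of all members: 68.8 and 66.3 CPM in P-bodies and 162 and 179 in cytosol (2.52-fold lower, log2 -1.33 ± 0.085, edgeR adjusted p = 4.56e-09). In MOLM-13 NUMA1 measured 29.4 and 28.1 CPM against 36 and 33.6 (log2 -0.27 ± 0.11, edgeR adjusted p = 0.0305), a call lost when any 1 of the 4 libraries was left out (-0.31 to -0.20). TPX2, the activator of Aurora A on spindle microtubules, measured 902 and 849 CPM in HEL P-bodies and 914 and 963 in cytosol (log2 -0.10, not called), and 180 and 175 in MOLM-13 P-bodies against 141 and 149 (log2 0.29 ± 0.058, edgeR adjusted p = 0.000115).

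Shugoshins and separase, which protect and cut the cohesin that holds sister chromatids, went apart. SGO1, the protector of centromeric cohesin in mitosis, measured 257 and 232 CPM in HEL P-bodies and 65.7 and 66.2 in cytosol (3.70-fold, log2 1.89 ± 0.083, edgeR adjusted p = 1.1e-10), and 181 and 197 in MOLM-13 P-bodies against 52.2 and 54.5 (3.53-fold, log2 1.82 ± 0.070, edgeR adjusted p = 2.76e-17). SGO2 measured 118 and 129 CPM against 102 and 90.3 in HEL (log2 0.36 ± 0.089, edgeR adjusted p = 0.0031) and 230 and 212 against 76.3 and 78.3 in MOLM-13 (2.86-fold, log2 1.52 ± 0.064, edgeR adjusted p = 1.69e-16). ESPL1, which encodes separase, fell in HEL P-bodies, with 42.5 and 45.1 CPM against 76.5 and 84.5 (1.84-fold lower, log2 -0.88 ± 0.095, edgeR adjusted p = 1.64e-06). In MOLM-13 it measured 20.6 and 21.9 CPM against 25.4 and 25.9, and its log2 change of -0.27 ± 0.12 missed the threshold (edgeR adjusted p = 0.0575). After removal of the GC and length trend, SGO2 (-0.53) and ESPL1 (-0.43) were both lower in HEL. ESPL1 then stood at 0.09 in MOLM-13 and was not called.

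**Figure D2:**
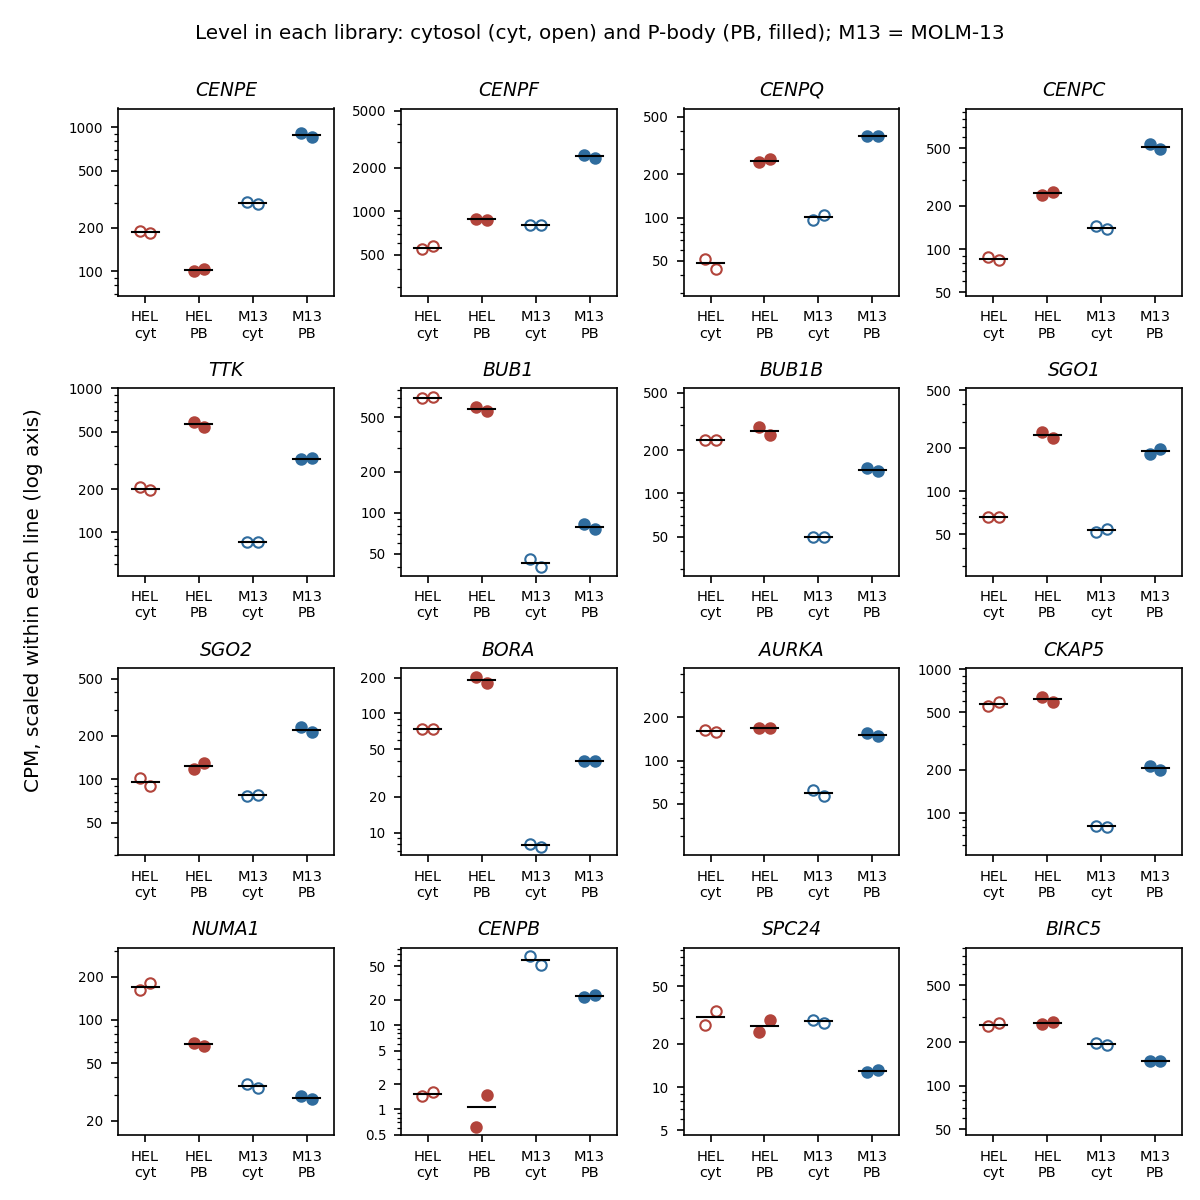
CPM of 16 members in each library (log axis, scaled within each line), for HEL (red) and MOLM-13 (blue), with cytosolic libraries as open points, P-body libraries as filled points and the mean of each pair as a bar. In CENPE the P-body points (100 and 104 CPM) lie under the cytosolic points in HEL and above them (914 and 862 CPM) in MOLM-13, while in AURKA and CKAP5 the fractions are close in HEL and apart in MOLM-13.

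The difference between lines was tested directly, as the P-body change in MOLM-13 less that in HEL, in 1 fit of all 8 libraries. It was called for 20 members, CENPE among them, whose difference had led to its choice: 15 were higher in MOLM-13, where 9.15% of all tested genes were, and 5 were lower, where 13% were. The median difference of members was 0.08 and that of all tested genes -0.11. Besides CENPE (2.26 ± 0.088, given as a description), the members with the lowest p-values were CKAP5 (1.04 ± 0.096, edgeR adjusted p = 1.6e-07), BUB1B (1.14 ± 0.11, edgeR adjusted p = 2.22e-07), AURKA (1.08 ± 0.10, edgeR adjusted p = 2.77e-07) and CENPF (0.74 ± 0.077, edgeR adjusted p = 6.76e-07). CENPF and BUB1B were called higher in both lines, while AURKA and CKAP5 rose in MOLM-13 and were not called in HEL. With the GC and length trend removed, CENPF (0.06) and BUB1B (-0.11) were not called in HEL either. BUB1, ASPM and NUMA1 followed with 0.97, 0.81 and 0.87, and SGO2 with 0.96; the remaining members called higher were BORA (0.79), ZW10 (0.69), NDC80 (0.63), NUF2 (0.42), CENPK (0.40) and KNTC1 (0.36).

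Lower in MOLM-13 than in HEL were BIRC5 (-0.63 ± 0.091, edgeR adjusted p = 2.91e-05), CENPQ (-0.69 ± 0.11, edgeR adjusted p = 7.88e-05), SPC24 (-1.13 ± 0.20, edgeR adjusted p = 0.000302), CENPM (-0.72 ± 0.14, edgeR adjusted p = 0.000699) and INCENP (-0.63 ± 0.22, edgeR adjusted p = 0.0465). CENPQ was high in P-bodies of both lines, and the other 4 were called lower in MOLM-13 P-bodies and were not called in HEL. By role, differences toward MOLM-13 were called for 4 of 5 corona and RZZ members and 5 of 7 of the Aurora A, PLK1 and pole group. CENPE, chosen for its difference, is among those 4 corona members. They were called for 1 of 15 inner kinetochore members (6.67%) and none of 4 passenger members. Of all tested genes 9.15% were called in that direction, so the inner kinetochore share is near the background.

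The differences between lines varied with the scaling and with the library left out. What brought these shifts about was not tested. With TMM factors computed within each line, a setting added once the data had been seen, the median of all genes was 0.08. Members then stood at 24 higher and 4 lower, where 15.1% of all tested genes were higher and 8% lower, with CENPE at 2.45. Leaving out HEL P-body replicate 1, HEL cytosol replicate 1 or HEL cytosol replicate 2 gave median differences of 0.41, 0.38 and 0.40 for members. The medians of all genes were 0.19, 0.17 and 0.14. Among single members, fits without 1 of those 3 libraries moved NDC80 to at most 1.00, BORA to 1.20, NUF2 to 0.69 to 0.73, KNTC1 to 0.63 to 0.73, CENPK to at most 0.83 and SPC24 to -0.68. CENPQ stood at -0.42 and BIRC5 at -0.34 without HEL P-body replicate 1, and BIRC5 at -0.38 without HEL cytosol replicate 2. INCENP lost its call in each of the 8 fits that left out 1 library (-0.66 to -0.24). CENPM stood at -0.45 without HEL cytosol replicate 1, and lost its call without HEL P-body replicate 1 (-0.42) and HEL cytosol replicate 2 (-0.40), CENPQ without HEL cytosol replicate 2 (-0.29) and BIRC5 without HEL cytosol replicate 1 (-0.30). CENPK lost its call without any 1 of the 4 MOLM-13 libraries (0.37 to 0.43), KNTC1 without HEL P-body replicate 2 (0.29), MOLM-13 P-body replicate 2 (0.32) or either MOLM-13 cytosol library (0.35 and 0.37), and NUF2 without MOLM-13 cytosol replicate 2 (0.37).

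**Figure D3:**
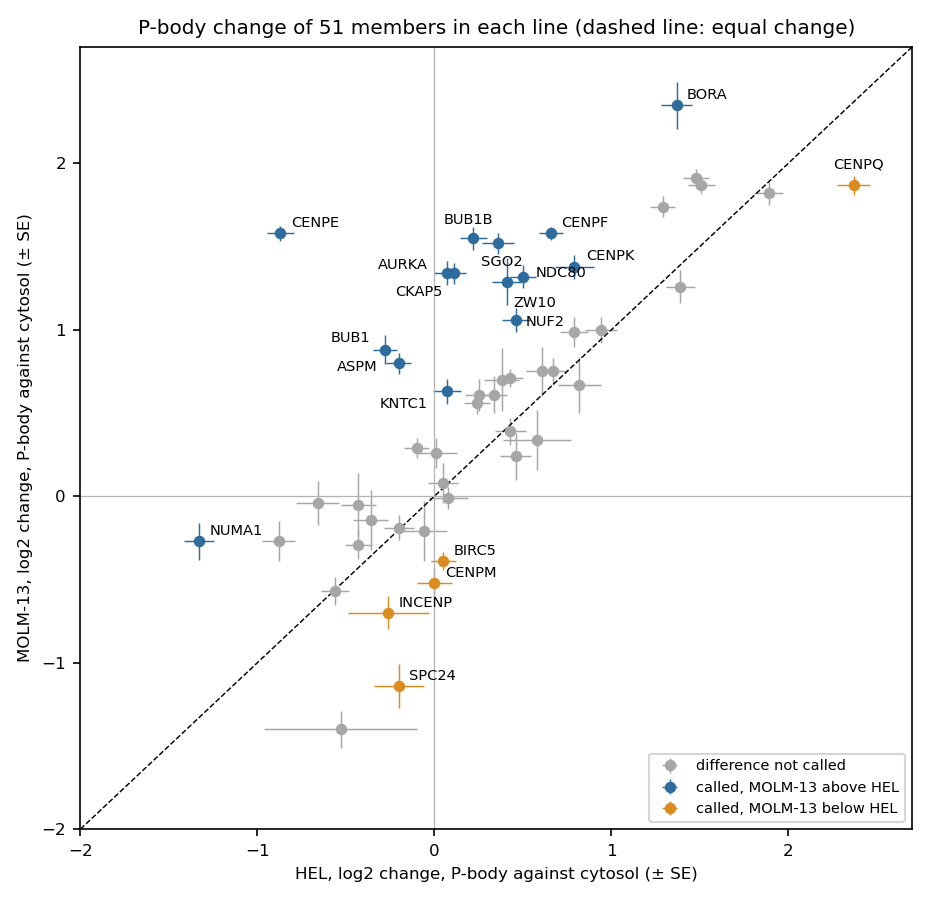
Log2 change between P-bodies and cytosol in HEL (x axis) against MOLM-13 (y axis) with standard errors, for the 51 members tested in both lines; blue and orange mark members whose difference was called higher or lower in MOLM-13. CENPE (-0.87, 1.58), BUB1 (-0.28, 0.88) and ASPM (-0.20, 0.80) lie in the upper left, and SPC24 (-0.20, -1.14) is the farthest called point below the dashed line of equal change.

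Of the 15 members called higher in MOLM-13, 9 had coding sequences of at least 3000 bases. CENPE is 1 of these, and without it 8 of the other 10 long members were called higher (median 0.84). In all there were 11 members of that length, and of all tested coding genes that long 19.4% were higher; the 2 exceptions were KNL1 (-0.12) and ESPL1 (0.42). Among 22 members from 1000 to below 3000 bases 5 were higher and 1 lower, and among 19 shorter ones 1 was higher and 4 lower. Of all coding genes of these lengths 12.7% and 6.78% were higher and 12.5% and 22.3% lower, so the 4 short members called lower are near the background. The median difference of the 11 long members was 0.87, and that of all coding genes of that length 0.07. In HEL 4 of these 11 were higher in P-bodies and 5 lower, near the 35.8% and 36.4% of all coding genes of that length, and in MOLM-13 9 were higher and 1 lower, where 45.6% and 23.9% were. Across members the Pearson correlation of the difference with the log2 coding length was 0.55 (n = 52; 0.50 without CENPE, n = 51), and across all tested coding genes it was 0.10 (n = 13068); genes within a library share its depth and preparation and are not independent. Once the GC and length trend was removed, 8 of those 9 differences named above as high kept their direction at 0.68 or more, namely CENPE (2.41), CENPF (0.68), BUB1 (0.79), BUB1B (0.96), ASPM (0.88), NUMA1 (0.79), CKAP5 (0.92) and SGO2 (1.09), and KNTC1 stood at 0.29.

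**Figure D4:**
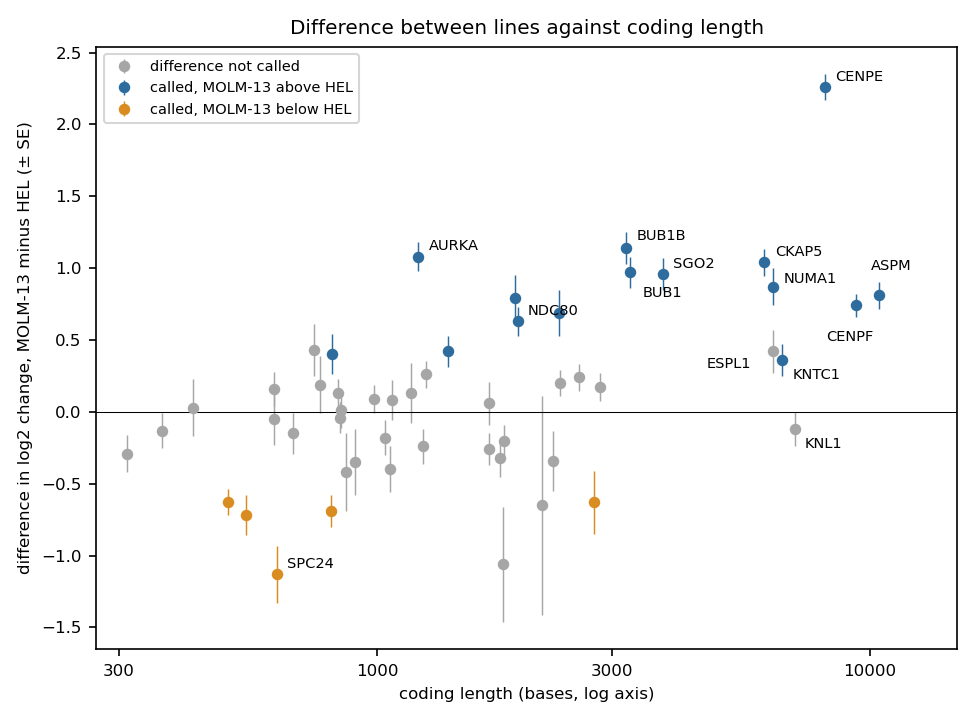
Difference in log2 change between lines (MOLM-13 minus HEL, y axis, with standard error) against coding length (x axis, log scale) for all 52 members; blue and orange mark called differences. Right of 3000 bases 9 of 11 points are called higher, where 19.4% of all coding genes were; 4 of 19 points left of 1000 bases are called lower, where 22.3% of all coding genes were.

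P-body levels followed base composition, in members as in other genes. GC content of the transcript ranged from 32.9% (CENPK) to 66.2% (CENPB), with a median of 42.7% for members tested in MOLM-13 and 49% for all coding genes tested there. Across members the Pearson correlation of GC content with the log2 change was -0.60 in HEL (n = 51) and -0.81 in MOLM-13 (n = 52); across all tested coding genes it was -0.63 (n = 11951) and -0.70 (n = 11242). Of 15 members below 40% GC, 13 were higher and 2 lower in HEL, and all 15 were higher in MOLM-13; of all coding genes of that class 77.5% and 80.3% were higher. CENPE and ASPM were the 2 that were lower in HEL, where 2.76% of coding genes below 40% GC were lower. At 50% GC and above, 1 of 13 members was higher and 4 lower in HEL, and 1 of 14 higher and 9 lower in MOLM-13, where 4.66% and 7.29% of all coding genes of that class were higher and 52.5% and 52.8% lower. All 4 passenger mRNAs lie there, at 51.4% (CDCA8) to 59.6% (INCENP). The part of GC content and length in these changes was not tested beyond the removal of their trend. It ended 21 calls in HEL and 17 in MOLM-13. In both lines these were BUB3, CENPI, CENPL, KNL1, MAD2L1, MIS12, NSL1, PLK1, SKA2 and SKA3. In HEL BUB1B, CDCA8, CENPF, CENPK, CENPN, DSN1, NDC80, NUF2, SGO2, ZW10 and ZWINT were added, and in MOLM-13 ASPM, AURKB, CENPM, KNTC1, NUMA1, SPC24 and TPX2; NUF2, MAD2L1 and SGO2 in HEL and AURKB and SKA3 in MOLM-13 were then called in the opposite direction. After that removal CENPQ (1.45 and 1.24), SGO1 (1.16 and 1.06), BORA (0.84 and 1.70), CENPC (0.69 and 1.07), TTK (0.63 and 1.10), ZWILCH (0.58 and 0.44) and CENPU (0.49 and 0.96) were still called higher in HEL and MOLM-13, CENPT (0.53 and 0.68) was called higher in both, and SKA1, SPC25 and CENPH were called lower in both.

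**Figure D5:**
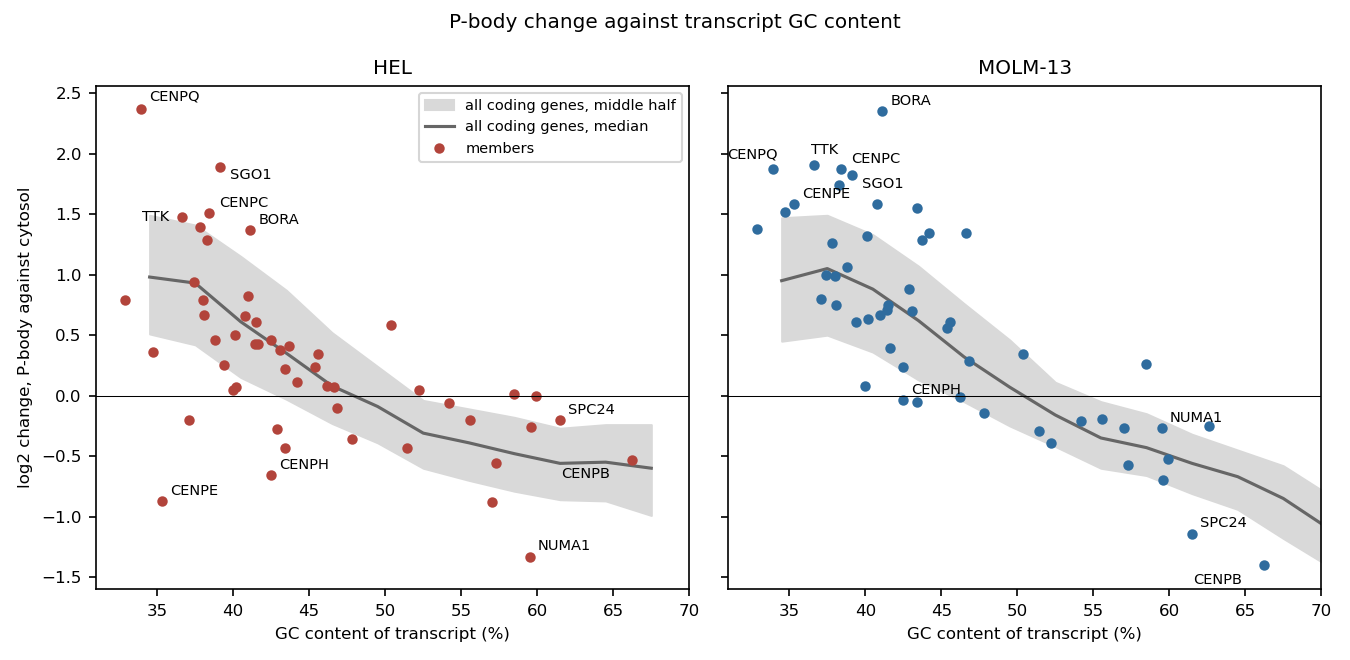
Log2 change between P-bodies and cytosol (y axis) against GC content of the transcript in percent (x axis) for members (points) in HEL and MOLM-13, over the median (line) and interquartile range (grey) of all tested coding genes in bins of 3 percentage points. CENPE, at 35.3% GC, lies far under the grey band in HEL (-0.87), while CENPQ, SGO1, BORA and CENPC lie at or above its upper edge in both lines.

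Other genes of the same machinery rose about as often as they fell in HEL and more often rose in MOLM-13. Of 64 other genes, 63 were tested in each line. In HEL P-bodies 20 rose (31.7%) and 18 fell (28.6%), near the 27.5% and 27.1% of all tested genes (medians -0.08 and -0.06). In MOLM-13 33 rose (52.4%) and 12 fell (19%), where 32.4% and 28.5% of all tested genes did (medians 0.36 and -0.04). The difference between lines was called higher in MOLM-13 for 21 (33.3%) and lower for 6 (9.52%). Of all tested genes 9.15% were higher and 13% lower. The same shares of all tested genes apply to the lists below. Of 10 remaining kinetochore subunits and CENP-A loading factors, 6 were higher and none lower in HEL, and 5 were higher and 2 lower in MOLM-13. Of 22 genes of the anaphase-promoting complex and its regulators, 5 were higher and 7 lower in HEL and 7 higher and 5 lower in MOLM-13. Of 31 tested spindle assembly factors, 9 were higher and 11 lower in HEL and 21 higher and 5 lower in MOLM-13.

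Among these other genes FBXO5, the inhibitor EMI1 of the anaphase-promoting complex, was the highest in both lines (4.61-fold in HEL, log2 2.21 ± 0.074, edgeR adjusted p = 2.61e-11). Next in HEL were ECT2, an exchange factor for cytokinesis (1.71), and the augmin subunit HAUS6 (1.59). In MOLM-13 FBXO5 was followed by HAUS6 (1.98) and SPDL1, a dynein adaptor at kinetochores (1.90), with FBXO5 at 2.27. The lowest in HEL were ANAPC1 (-0.74), TACC3 (-0.61) and FZR1 (-0.61), and in MOLM-13 UBE2S (-0.85), ANAPC11 (-0.67) and ANAPC15 (-0.67), of which TACC3 stabilises spindle microtubules and the others are subunits or partners of the anaphase-promoting complex.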

How the data were processed

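P-body and cytosolic RNA of HEL and MOLM-13 was sequenced in 8 libraries, 2 per group. Per the labels' protocols, a miRNeasy Micro kit gave total RNA, and NEBNext Ultra II reagents the libraries. The deposited values are raw counts per gene symbol, in 1 table per line; per the submitters' processing notes, GRCh38, STAR, DESeq2 and SAMtools 1.12 were used, without a stated role; the read counter, annotation, strand setting and filters have no source here. Of 61544 rows per table, 1348 rows of 112 repeated symbols were left out of library sizes and tests (0.0193% to 0.0477% of counts).

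Genes were filtered with edgeR 4.0.16 (filterByExpr, smallest count 10), scaled by TMM and tested with the quasi-likelihood test, within each line (14772 and 14089 genes) and for the difference between lines (17477 genes), with Benjamini-Hochberg adjustment over all tested genes and calls at 0.05. Standard errors are the log2 change divided by the root of F. Biological coefficients of variation were 0.0781 (HEL) and 0.0382 (MOLM-13). The script was tested on simulated counts. Members and gene lists were chosen with earlier results of these data known. Values in every library are given for CENPE, for the 5 highest and 5 lowest called log2 changes in each line, for up to 5 called differences of lowest p in each direction and for the member of each role with the highest mean CPM; of the other genes, the 3 highest and 3 lowest called are named. CENPO, CENPP and several members with small changes were named after their values were seen. Transcript length, GC content and 3′ UTRs are those of the longest-coding transcript of each gene in GENCODE release 29, to which 55900 symbols matched; 389 and 413 tested genes had no match. The trend on GC content and log2 length was fitted with mgcv 1.9.3 over all tested genes and removed through offsets.

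Alternatives were DESeq2 size factors, library totals, other filters, the DESeq2 1.42.0 test, a replicate block, trend removal, 1 fit of all libraries, limma 3.58.1 voom with weights by line, each library left out and, chosen after seeing the data, TMM factors of each line. With 2 libraries per group and some members below 100 counts a library, both replication and depth limit precision.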

Additional observations from a re-analysis of the deposited data

Results flagged for a closer look

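The P-body change differed between lines, by the test of the difference itself, for 19 members besides CENPE. Of all tested genes 22.2% were called in either direction. CENPE (2.26) was chosen for this difference, so its value is a description. The change was higher in MOLM-13 for BUB1B (1.14), AURKA (1.08), CKAP5 (1.04), BUB1 (0.97), SGO2 (0.96), NUMA1 (0.87), ASPM (0.81), BORA (0.79), CENPF (0.74), ZW10 (0.69), NDC80 (0.63), NUF2 (0.42), CENPK (0.40) and KNTC1 (0.36). It was lower in MOLM-13 for SPC24 (-1.13), CENPM (-0.72), CENPQ (-0.69), BIRC5 (-0.63) and INCENP (-0.63). Less certain were INCENP, CENPK, KNTC1, CENPM, CENPQ, BIRC5 and NUF2, whose calls did not survive every removal of a library, as given above.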

How the results depend on the processing

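The changes in counts and medians of members are given here; their cause was not tested. With library totals, members stood in HEL at 15 higher, 22 lower and a median of -0.09, and in MOLM-13 at 17 lower and a median of 0.21. Of all tested genes 18.7% were then higher and 45.8% lower in HEL, and 50.8% lower in MOLM-13. With the GC and length trend removed, 11 members were higher in HEL (23.1% of all tested genes) with a median of -0.01, and the median in MOLM-13 was 0.19. With that trend removed 10 differences between lines were lower, where 20.7% of all tested genes were. The HEL median was 0.29 with DESeq2 size factors, 0.27 by the DESeq2 test and 0.30 in 1 fit of all libraries, where that of MOLM-13 was 0.53. With CPM of at least 5, 9 differences were lower, where 22.7% of all tested genes were. With TMM factors of each line 24 differences were higher, where 15.1% of all tested genes were, and the median was 0.28. Under the other settings of all 8 libraries the median difference lay between 0.01 (trend removed) and 0.2 (DESeq2 test), against 0.08. Leaving out each library gave HEL medians of 0.20 to 0.35, 12 to 25 higher and 2 to 5 lower differences and a median difference of 0.06 to 0.41; where a group was left with 1 library, it was assumed to vary like the others.

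Of members called with or without it, the sign turned with the trend removed in HEL for CENPK (-0.13), KNL1 (-0.16), NSL1 (-0.01), NDC80 (-0.14), NUF2 (-0.31), SPC25 (-0.65), SKA3 (-0.06), KNTC1 (-0.58), BUB1B (-0.11), BUB3 (-0.13), MAD2L1 (-0.47), CKAP5 (-0.21) and SGO2 (-0.53), and in MOLM-13 for CENPM (0.18), CENPW (0.19), KNL1 (-0.04), SPC25 (-0.52), SKA3 (-0.23), KNTC1 (-0.08), MAD2L1 (-0.15), AURKB (0.25) and NUMA1 (0.18). By the same criterion it turned with library totals in HEL for CENPM (-0.32), CENPT (-0.32), ZWINT (-0.09), SPC25 (-0.28), KNTC1 (-0.25), BUB1B (-0.11), MAD2L1 (-0.07), BIRC5 (-0.28), AURKA (-0.25) and CKAP5 (-0.22), and in MOLM-13 for CENPT (-0.18), SPC25 (-0.35), SKA3 (-0.05) and TPX2 (-0.15).

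Same-numbered P-body and cytosolic libraries showed no shared deviation: their deviations correlated at -0.037 in HEL and -0.011 in MOLM-13. This cannot tell whether they came from the same culture. With the replicate number as a block, members stood at 27 higher and 10 lower in HEL, 33 and 9 in MOLM-13, and 14 and 4 differences. The shares of all tested genes were 27.2% and 26.9% in HEL, 32.5% and 28.5% in MOLM-13, and 8.85% and 12.4% of differences. At 10 to 28 counts a library, CENPB in HEL, like MAD1L1 in both lines, was limited by depth.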
